A study of Mus musculus with 10 samples.

Results

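Selenbp1 and Selenbp2, the mouse genes of the selenium-binding proteins, are a pair of close paralogs, and they were taken by symbol as 2 of the 24052 genes counted in liver RNA. Both passed the filter on low counts (at least 1 CPM, counts scaled to library size, in at least 5 livers), as did 11208 genes in all. The pair was selected on its log2 fold changes between these livers, known from an earlier analysis, so its own change between genotypes is given as a description, without a test.

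The series compared 5 wild-type livers with 5 Ndrg3 LKO livers, 1 RNA sequencing library per liver. The legend of the paper's RNA sequencing figure gives 4 Ndrg3 LKO livers and does not say which. All 5 are used here. In Ndrg3 LKO mice, exon 4 of Ndrg3 (N-myc downstream regulated gene 3) was flanked by loxP sites and removed by Cre expressed from the albumin promoter. The deletion is thus aimed at hepatocytes, and whether other cells of the liver kept the gene was not tested. The controls were wild-type littermates, whose floxed and Cre alleles are not given in the sources used here. The labels give the strain as C57BL/6 for all mice, which by the methods came from a backcross to C57BL/6N, and their food as ad libitum. Their age was 8 to 10 weeks by the methods, and 10 to 12 weeks by a figure legend. The labels number the livers of each genotype from 1 to 5. They do not say whether these came from separate litters, so p-values measure the spread between these livers.

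Despite their name, neither gene encodes a selenoprotein: they bind selenium but do not carry selenocysteine. SELENBP1 is a methanethiol oxidase, which turns methanethiol, a small thiol formed when methionine is broken down, into formaldehyde, hydrogen sulfide and hydrogen peroxide. SELENBP2 is a liver protein first described as a target of reactive acetaminophen metabolites, and its transcript is known to be more abundant in male than in female mouse liver.

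The sequences of the pair show how far reads can tell the genes apart. By GENCODE coordinates on NCBIM37, the mouse assembly that is identical to mm9, both lie on the plus strand of chromosome 3, Selenbp2 (ENSMUSG00000068877.5, 8 annotated transcripts) at chr3:94497478-94508335 and Selenbp1 (ENSMUSG00000068874.7, 6 annotated transcripts) at chr3:94736978-94748680. Their starts are 239500 bases apart. The transcripts compared are 1719 and 1712 bases long, each with 12 exons, of which 11 have the same length in both genes. The coding sequences have 1419 bases each and differ at 18 of them (98.7% identity), 12 times at first or second codon positions and 6 times at the third. The longest coding run without a difference is 193 bases. The coding stretch of 100 bases, the length of a read, that differs most lies in exon 5 and is shown because it is where a read is easiest to assign, with the 4 differing bases in capitals. It covers coding bases 361 to 460, at chr3:94741877-94741976 in Selenbp1 and chr3:94501965-94502064 in Selenbp2, on the plus strand of NCBIM37. Counted from the first coding base, with the base of Selenbp1 written first, the differences are G404A, T406A, T407C and G449A.
Selenbp1 exon 5: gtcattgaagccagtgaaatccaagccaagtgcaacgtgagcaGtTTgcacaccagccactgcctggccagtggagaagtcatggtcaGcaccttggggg
Selenbp2 exon 5: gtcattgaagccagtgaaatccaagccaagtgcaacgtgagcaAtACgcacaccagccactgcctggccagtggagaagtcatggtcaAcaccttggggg

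An exact window of 100 bases occurred in both transcripts at 344 of 1613 positions of Selenbp1 (21.3%) and 344 of 1620 positions of Selenbp2 (21.2%). No window of 200 bases was shared. A blastn search of both transcripts found 0 matches in the genome outside the pair, and neither gene shared an exonic base with another annotated gene, although Selenbp2 lies within the span of Cgn on the opposite strand. Reads of 100 bases were sequenced in pairs, and how a pair that matches both genes was counted is not given in the sources used here.

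The promoters are shown because the genes differed so widely in level while their upstream sequences remained alike. The 250 bases before the annotated starts, at chr3:94736728-94736977 for Selenbp1 and chr3:94497228-94497477 for Selenbp2 (plus strand, NCBIM37), aligned over 262 columns, of which 224 were identical (85.5%). Capitals mark the 14 substitutions and the 24 unpaired bases, which fell into 3 runs, one of them at the far end where the windows are offset. Within the last 100 columns before the start, the promoters differed at 4.
Selenbp1 promoter: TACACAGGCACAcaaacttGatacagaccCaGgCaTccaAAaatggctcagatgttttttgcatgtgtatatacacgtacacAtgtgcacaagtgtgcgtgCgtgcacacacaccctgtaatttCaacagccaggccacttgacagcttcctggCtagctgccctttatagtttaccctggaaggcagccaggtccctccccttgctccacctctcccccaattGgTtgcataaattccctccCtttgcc
Selenbp2 promoter: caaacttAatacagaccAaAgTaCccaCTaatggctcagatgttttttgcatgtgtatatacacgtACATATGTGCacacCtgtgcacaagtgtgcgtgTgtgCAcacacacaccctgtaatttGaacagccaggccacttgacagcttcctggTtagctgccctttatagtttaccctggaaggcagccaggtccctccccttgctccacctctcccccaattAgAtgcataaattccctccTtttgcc

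Both strands of these windows were searched for 3 motifs. TATAAA occurred once in each promoter, and it was present in 12.4% of 32817 promoter windows of 250 bases from RefSeq (GRCm38.p6). CCAAT occurred 2 times in Selenbp1, in overlapping matches on opposite strands, and 1 time in Selenbp2, against 33.8% of all promoters with at least 1 match. The STAT motif TTCNNNGAA was found in neither window and in 7.01% of all promoters.

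**Figure D1:**
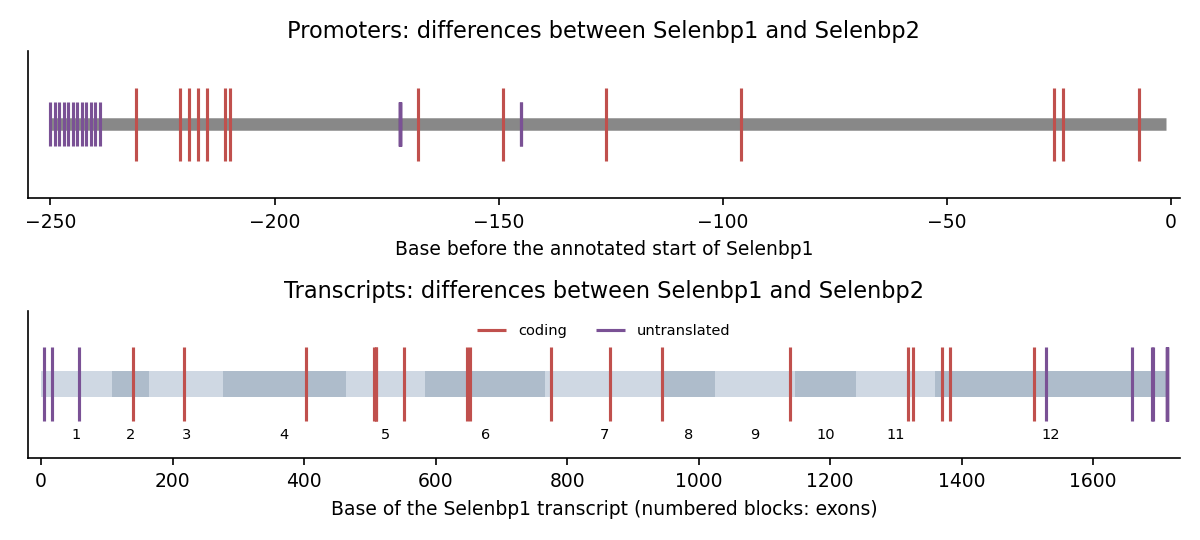
Differences between Selenbp1 and Selenbp2. Upper panel, the aligned 250 bases before the start of Selenbp1, with substitutions as tall red ticks and unpaired bases as short purple ticks, against the distance from the start in bases. Lower panel, differences along the Selenbp1 transcript in bases, coding in red and untranslated in purple, over blocks that mark the 12 exons. The 18 coding differences are spread over most exons, and the promoters differ least near the start.

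Ndrg3 itself had 15.95 to 21.9 TMM-normalized CPM in the wild-type livers and 7.08 to 9.18 in the Ndrg3 LKO livers, with no overlap. Libraries held 20872262 to 30450057 counts. Ndrg3 LKO replicate 5 stood apart from the other livers of its group. On the first principal component (68.7% of the variance) it lay at 14.1, the other Ndrg3 LKO livers between 51.1 and 56.6 and the wild-type livers between -49.9 and -43.1, and values are given with and without it. All 10 livers carried Y-linked transcripts (Ddx3y, 991 to 4111 counts) and 0 to 2 counts of Xist.

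Selenbp2 was among the most abundant transcripts of the wild-type liver and was almost lost in every Ndrg3 LKO liver. The 5 wild-type livers had 70513, 68853, 38763, 60411 and 65603 counts, and the 5 Ndrg3 LKO livers 90, 97, 54, 474 and 674. In TMM-normalized CPM, the wild-type livers had 3964, 3368, 2162, 2779 and 3911, a mean of 3237 ± 769 (SD, n = 5). The Ndrg3 LKO livers had 2.59, 2.35, 1.39, 13.5 and 31.8, a mean of 10.3 ± 12.99 (SD, n = 5). The lowest wild-type liver thus lay far above the highest Ndrg3 LKO liver, and the groups did not overlap, which held in the same direction for 15.9% of the 11208 genes. By its counts in a library, Selenbp2 ranked between 39th and 82nd of all genes when the livers were wild-type, and between 3628th and 10848th when they were Ndrg3 LKO.

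The fitted log2 fold change of Selenbp2 was -8.30 (SE 0.97), and the wild-type mean was 313-fold the Ndrg3 LKO mean. Without Ndrg3 LKO replicate 5 the change was -9.36 (SE 0.79) and the means differed 652-fold. It was the 6th largest fall among the 11208 genes, of which 9 fell by at least 8 on the log2 scale. Without that replicate it was the 3rd largest among 11446 genes, of which 16 fell that far. Within the Ndrg3 LKO group, replicates 4 and 5 stood above the other 3 livers, and the highest value was 22.9-fold the lowest. In the wild-type group this ratio was 1.83.

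Selenbp1 stayed within the same order of magnitude in both genotypes. The wild-type livers had 8113, 8374, 6993, 8197 and 6132 counts, or 456, 410, 390, 377 and 366 TMM-normalized CPM, with a mean of 400 ± 35.5 (SD, n = 5). The Ndrg3 LKO livers had 7517, 5585, 6566, 5232 and 11063 counts, or 216, 136, 169, 149 and 522 TMM-normalized CPM, with a mean of 239 ± 162 (SD, n = 5). Replicates 1 to 4 of the Ndrg3 LKO group lay below every wild-type liver, while replicate 5 lay above every one, so that the groups overlapped. The log2 fold change was -0.74 (SE 0.33) in all 10 livers, the 1635th largest fall. In the 9 livers without that replicate it was -1.27 (SE 0.16), the 934th largest fall, and the mean of the 4 remaining Ndrg3 LKO livers was 168 ± 35.3 (SD, n = 4). The size of the Selenbp1 fall depended on the scaling: with library size alone it was -0.33, and the median of all genes then moved from 0.03 to 0.56.

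**Figure D2:**
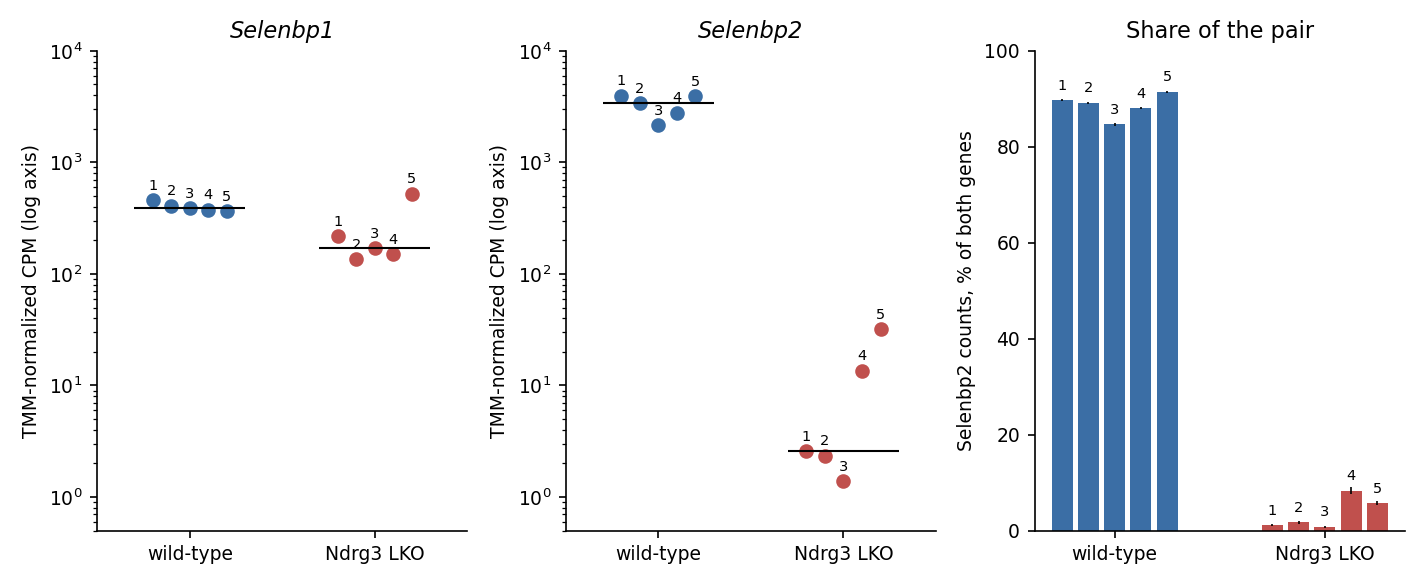
TMM-normalized CPM of Selenbp1 and Selenbp2 in each liver on a log axis, with the median as a line, and the share of Selenbp2 in the counts of both genes in percent, with 95% Wilson intervals as error bars. Numbers are the replicates of each group. Selenbp2 lies between 2162 and 3964 in wild-type and between 1.39 and 31.8 in Ndrg3 LKO livers, and Selenbp1 of Ndrg3 LKO replicate 5, at 522, lies above all wild-type livers.

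The ratio of the genes within a library does not depend on the scaling between libraries, and it turned over. Wild-type livers had 5.54 to 10.7 Selenbp2 counts for each Selenbp1 count, whereas Ndrg3 LKO livers had 11.04 to 122 Selenbp1 counts for each Selenbp2 count. The log2 ratio of Selenbp2 to Selenbp1 was 2.99 ± 0.35 (SD, n = 5) in wild-type and -5.33 ± 1.51 (SD, n = 5) in Ndrg3 LKO livers, a difference of -8.32, or -8.64 without Ndrg3 LKO replicate 5. Per kilobase of transcript, where levels of the genes can be compared, Selenbp2 had 1258 to 2306 CPM per kb and Selenbp1 214 to 266 in the wild-type livers. In the Ndrg3 LKO livers Selenbp2 had 0.810 to 18.5 CPM per kb and Selenbp1 79.2 to 305. Selenbp2 was thus the higher gene of the pair in 5 of 5 wild-type livers and the lower one in 5 of 5 Ndrg3 LKO livers.

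Selenbp2 made up 84.7% to 91.5% of the counts of the pair in the wild-type livers. Its share was 1.18% (95% Wilson interval 0.964 to 1.45) in Ndrg3 LKO replicate 1, 1.71% (1.40 to 2.08) in replicate 2 and 0.816% (0.626 to 1.06) in replicate 3. In replicate 4 it was 8.31% (7.62 to 9.05) and in replicate 5 it was 5.74% (5.34 to 6.18). The intervals describe counting error alone, because PCR copies of a molecule were not marked. The shares also bound how many reads of Selenbp1 could have been counted as Selenbp2: no more than 0.816% to 8.31% of the counts of the pair in any Ndrg3 LKO liver. What part of these residual counts came from either gene was not tested, nor was the part of Selenbp2 reads in the Selenbp1 counts of the wild-type livers.

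The genes whose pattern over the 10 livers was nearest to that of Selenbp2 were also lower in every Ndrg3 LKO liver than in any wild-type liver, though not all fell as far as Selenbp2. Nearness was the root mean square difference between profiles of log2(CPM + 1), each centred on its wild-type mean. It was 1.04 for Mup14, a major urinary protein, 1.15 for Ces3b, a carboxylesterase, 1.54 for Serpina1e, an alpha-1-antitrypsin, 1.61 for Cyp8b1, the sterol 12-alpha-hydroxylase of bile acid synthesis, and 1.75 for Mup1. Mup14 ranged from 581 to 1962 CPM in wild-type and from 0.773 to 8.76 CPM in Ndrg3 LKO livers. Ces3b had 477 to 702 and 0.291 to 34.8 CPM. Like Selenbp2, Mup14 and Ces3b had a higher value in Ndrg3 LKO replicate 4 than in replicates 1 to 3. They went apart in replicate 5, where Ces3b was at its highest and Mup14 had 1.18 CPM. Serpina1e and Cyp8b1 had log2 fold changes of -4.59 and -4.79, and reached 3192 and 102 CPM in replicate 5. Of the 5 genes, 4 were also among the nearest 5 in the 9 livers without that replicate. Mup and Serpina1 genes have near-identical copies, and their counts may be split between them.

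Selenbp1 was not among the genes near its paralog: its difference from Selenbp2 was 5.67, the 960th smallest. Seen from Selenbp1, Selenbp2 was the 11207th of the 11207 other genes. The genes nearest to Selenbp1 were Ivd, the isovaleryl-CoA dehydrogenase of leucine breakdown (0.167), Fdxr, the ferredoxin reductase of mitochondria (0.173), Maf1, a repressor of RNA polymerase III (0.175), Ppm1k, the phosphatase of branched-chain ketoacid dehydrogenase (0.184), and Serpind1, heparin cofactor II (0.186). Ivd had 232 to 274 CPM in the wild-type livers, 84.8 to 109 in Ndrg3 LKO replicates 1 to 4 and 262 in replicate 5. Only 1 of these 5 genes remained among the nearest 5 without replicate 5.

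**Figure D3:**
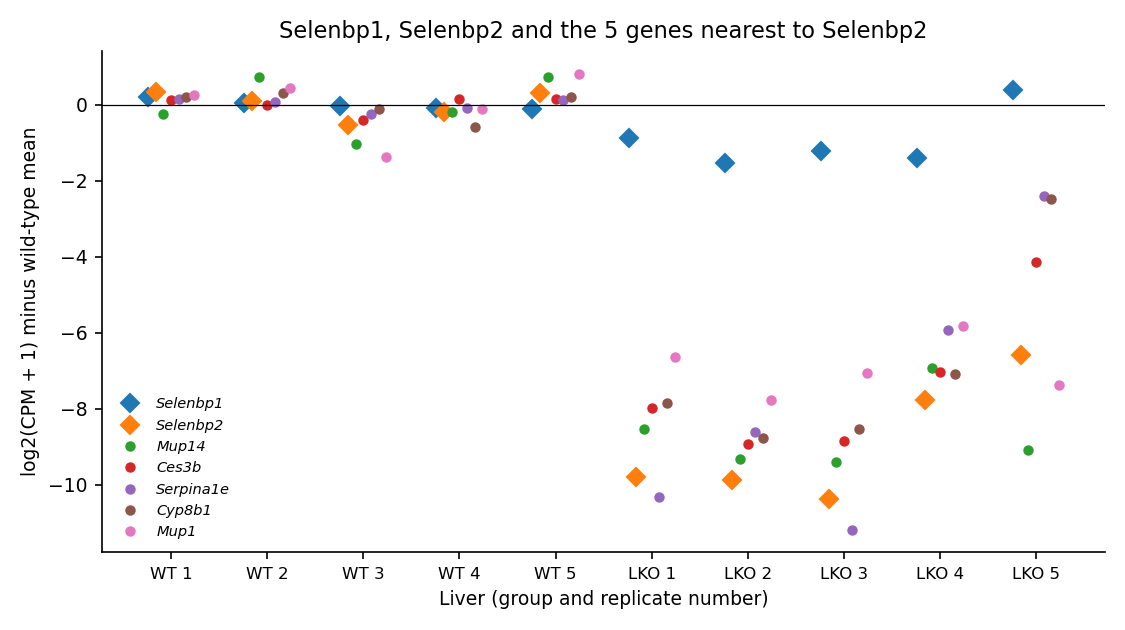
Difference of each liver from the wild-type mean on the log2(CPM + 1) scale for Selenbp1 and Selenbp2 (diamonds) and the 5 genes nearest to Selenbp2 (circles), by liver. Selenbp2 and its nearest genes lie far below the wild-type mean in Ndrg3 LKO replicates 1 to 4. Selenbp1 lies between -1.55 and -0.88 in those replicates and above the wild-type mean in replicate 5.

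Of the 26 annotated genes that start within 200 kb of either start, 13 were listed and 12 tested, of which 3 were higher and 4 lower, against 25.6% and 23.0% of all genes. The gene next to Selenbp2 on its upstream side fell with it. BC021767, a processed transcript on the minus strand at chr3:94465752-94474618 whose start is 22.9 kb from that of Selenbp2, had 59, 152, 63, 93 and 161 counts in wild-type and 1, 4, 2, 5 and 4 counts in Ndrg3 LKO livers. Its groups did not overlap. The log2 fold change was -5.82 (SE 0.48, edgeR adjusted p = 8.44e-06), and -6.07 without Ndrg3 LKO replicate 5. BC021767 reached the filter on low counts through the wild-type livers alone, which favours a fall. Its Ndrg3 LKO counts lie near 3, taken as the floor of detection, so the size of the fall is uncertain. BC021767 shares 173 of its 1794 exonic bases with Cgn, the gene of cingulin, whose span holds both BC021767 and Selenbp2. Cgn had a log2 fold change of -0.31 (SE 0.21, adjusted p = 0.253). Tuft1, the next tested gene on that side, fell by 1.13 on the log2 scale (SE 0.26, adjusted p = 0.00393).

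Around Selenbp1 the changes were smaller. Psmb4, a proteasome subunit gene 46.1 kb upstream, rose by 0.74 on the log2 scale (SE 0.20, adjusted p = 0.00908). Rfx5, the regulator of MHC class II genes 21.0 kb downstream, had a log2 fold change of -0.60 (SE 0.24, adjusted p = 0.0552). Without Ndrg3 LKO replicate 5 it was -0.71 and passed the threshold of 0.05. Of the 5 annotated genes that lie whole between the pair, Psmb4 and Pogz are the 2 protein-coding ones.

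**Figure D4:**
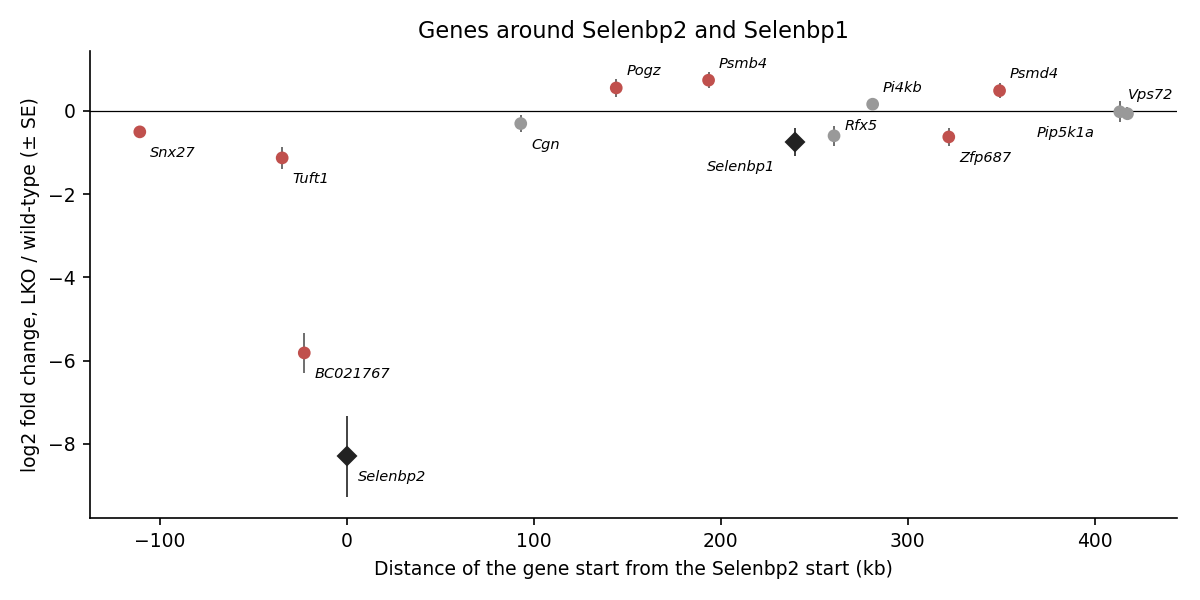
Log2 fold change with SE of the tested genes around the pair, against the distance of their starts from the Selenbp2 start in kb. Diamonds are Selenbp2 and Selenbp1, red circles genes with edgeR adjusted p under 0.05 and grey circles the other genes. BC021767, at -5.82, is the tested neighbour whose change comes nearest to that of Selenbp2.

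Since Selenbp2 is known as a male-biased gene, 20 other male-biased and 20 female-biased liver genes were listed. Of the male-biased genes, 19 were tested, and 18 were lower in Ndrg3 LKO livers (23.0% of all genes were) and 0 higher, with a median log2 fold change of -3.19, against 0.03 over all genes. In all 10 livers, the genes with the largest falls were Mup7 at -7.21 (SE 0.91, edgeR adjusted p = 1.05e-04), the UDP-glucuronosyltransferase gene Ugt2b38 at -5.68 (SE 0.73, adjusted p = 1.21e-04) and the fatty acid elongase gene Elovl3 at -5.08 (SE 0.80, adjusted p = 4.26e-04). Mup7 had -7.94 without Ndrg3 LKO replicate 4 and -6.93 without Ndrg3 LKO replicate 5. Ugt2b38 had 17.2 to 104 CPM in wild-type and 0.206 to 2.12 CPM in Ndrg3 LKO livers, so its wild-type values were enough to meet the filter. Genes that enter in this way favour falls in a count over tested genes, although 19 of the 20 listed genes were tested. Serpina1e is both in this list and among the genes nearest to Selenbp2. Without Ndrg3 LKO replicate 5 its log2 fold change was -7.65, then the largest fall of the list. Selenbp2 had a larger fall than each of the 19. Of the 20 female-biased genes, 8 reached the filter on low counts. Cyp2b9, a cytochrome P450 gene, had 0.0489 to 0.225 CPM in wild-type and 3.17 to 109 CPM in Ndrg3 LKO livers, and Ntrk2, a neurotrophin receptor gene, had 0.179 to 0.506 and 2.97 to 41.7 CPM. Both reached the filter through the Ndrg3 LKO livers alone, so that a count over the tested genes would favour rises, and none is given for the filtered fit. The cytochrome P450 gene Cyp2a4 had 0.538 to 2.34 CPM in wild-type and 32.3 to 1700 CPM in Ndrg3 LKO livers, with a log2 fold change of 8.36 (SE 1.36, adjusted p = 5.27e-04), or 5.71 without Ndrg3 LKO replicate 5, the highest liver. All of these livers carried Y-linked transcripts.

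Genes that use selenium as selenocysteine moved in both directions. Of 24 selenoprotein genes, 22 were found by symbol and 19 tested: 4 were higher, 4 lower and 11 did not pass, with a median log2 fold change of -0.15. Thus 8 of 19 passed in either direction, beside 48.6% of all genes. Without Ndrg3 LKO replicate 5, 4 were higher and 7 lower (28.4% and 27.2% of all genes). Dio1, the deiodinase that activates thyroid hormone, fell from 251 ± 70.0 to 14.3 ± 13.1 CPM (SD, n = 5; log2 fold change -4.14, SE 0.61, edgeR adjusted p = 2.73e-04; -4.80 without Ndrg3 LKO replicate 5). Sephs2, which makes the selenium donor selenophosphate, had -1.57 (SE 0.25, adjusted p = 4.19e-04), and Selo (Selenoo), the mitochondrial selenoprotein O, -0.98 (SE 0.18, adjusted p = 0.00108). Gpx3, the plasma glutathione peroxidase, rose by 1.40 (SE 0.22, adjusted p = 4.57e-04), Sepn1 (Selenon), of the endoplasmic reticulum, by 1.14 (SE 0.23, adjusted p = 0.0017), and Txnrd2, the mitochondrial thioredoxin reductase, by 0.91 (SE 0.17, adjusted p = 0.00114). None of the 19 fell as far as Selenbp2. Of 12 tested genes of selenium handling and selenocysteine synthesis, 2 were higher and 2 lower (2 and 5 without Ndrg3 LKO replicate 5), among them Secisbp2l, a paralog of the selenocysteine insertion factor, at -0.44 (SE 0.13, adjusted p = 0.0175). With library size alone, this value became 0.088.

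The substrate and products of the methanethiol oxidase reaction of SELENBP1 link it to 4 lists with 20 tested genes, of which 4 were higher and 9 lower (25.6% and 23.0% of all genes), with a median log2 fold change of -0.54. Without Ndrg3 LKO replicate 5, 4 were higher and 11 lower (28.4% and 27.2%). On the substrate side, the thiol methyltransferase genes Mettl7a1 and Mettl7b had -1.18 (SE 0.28, edgeR adjusted p = 0.00523) and 0.55 (SE 0.18, adjusted p = 0.0251). For sulfide and sulfite, 2 of 7 genes were higher and 4 lower, or 5 lower without that replicate. Cbs, which makes cystathionine and can release hydrogen sulfide, rose from 308 ± 33.7 to 975 ± 76.8 CPM (SD, n = 5; log2 fold change 1.66, SE 0.14, adjusted p = 9.56e-06). The sulfur transferase gene Mpst had -1.04 (SE 0.24, adjusted p = 0.00358), and Suox, the sulfite oxidase, -1.14 (SE 0.21, adjusted p = 0.00106). Sqrdl (sulfide quinone oxidoreductase) had -1.02 (SE 0.35, adjusted p = 0.0283), the thiosulfate sulfurtransferase gene Tst -0.81 (SE 0.27, adjusted p = 0.0282), and Ethe1, the persulfide dioxygenase, 0.61 (SE 0.19, adjusted p = 0.022). Cth, the cystathionine gamma-lyase, did not pass at -0.60 (SE 0.42, adjusted p = 0.259), but had -1.14 and passed without Ndrg3 LKO replicate 5. With each of the 10 livers left out in turn, the call was lost for Mettl7b and Ethe1 in 3 fits each, for Tst in 4 and for Sqrdl in 6.

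For formaldehyde, 3 of 4 genes were lower and 0 higher, beside 23.0% and 25.6% of all genes. Aldh1l1, the formyltetrahydrofolate dehydrogenase, had -1.79 (SE 0.39, edgeR adjusted p = 0.00277; -2.38 without Ndrg3 LKO replicate 5), and Adh5, the glutathione-dependent formaldehyde dehydrogenase, -1.17 (SE 0.18, adjusted p = 3.97e-04). Aldh2, the mitochondrial aldehyde dehydrogenase, had -0.52 (SE 0.15, adjusted p = 0.014), a value that became 0.019 with library size alone and 0.33 after quantile normalization. For hydrogen peroxide, 1 of 7 genes was higher and 1 lower, shares below those of all genes. Cat, the catalase of peroxisomes, fell from 2687 ± 720 to 877 ± 183 CPM (SD, n = 5; log2 fold change -1.61, SE 0.22, adjusted p = 1.89e-04). Prdx3, the mitochondrial peroxiredoxin, had 0.39 (SE 0.13, adjusted p = 0.0288), a call lost in 5 of the 10 fits that left out 1 liver. The other 5 peroxiredoxin genes lay between -0.56 and 0.16 and did not pass, although Prdx4, at -0.56, had -0.98 and passed without Ndrg3 LKO replicate 5.

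**Figure D5:**
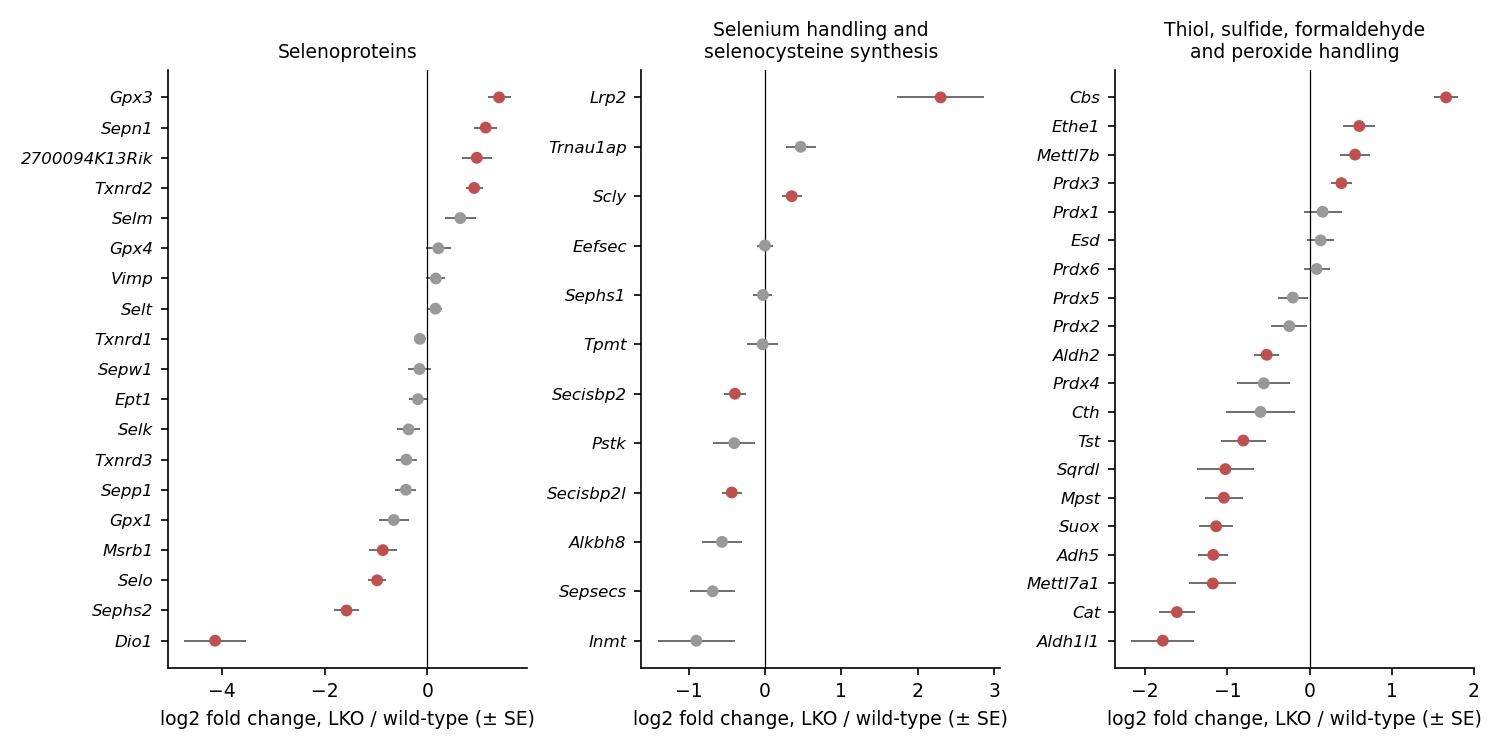
Log2 fold change with SE of the tested genes of 3 groups of lists, with genes of edgeR adjusted p under 0.05 in red and the others in grey. The lists hold changes in both directions, with Dio1, at -4.14, as the selenoprotein gene with the largest fall.

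Markers of the liver's cell types moved with genotype as well. The summed CPM of 8 hepatocyte markers was 128097 to 171372 in the wild-type livers, 33367 to 40094 in Ndrg3 LKO replicates 1 to 4 and 147650 in replicate 5, and 6 of the 8 were lower (23.0% of all genes). Alb, the albumin gene, made up most of the sum, with 108020 CPM in replicate 5, within the wild-type range of 80612 to 115946. In the same liver Hnf4a, a hepatocyte transcription factor gene, had 362 CPM, below the 590 to 794 of the wild-type livers. Apoa1 and Tdo2 also lay below their wild-type ranges. Ttr, Tat and Cps1 lay within theirs, and Serpina1a, at 3900 CPM, lay above its range of 2020 to 3086. Cps1 had a log2 fold change of 0.09 over all 10 livers and did not pass. All 7 Kupffer cell and macrophage markers, 5 of 6 endothelial and 4 of 6 stellate cell markers were higher (25.6% of all genes). The Kupffer cell sum was 79.4 to 203 CPM in wild-type livers, 182 to 564 in Ndrg3 LKO replicates 1 to 4 and 236 in replicate 5. The endothelial sum was 49.4 to 63.9, 104 to 140 and 99.2 CPM in the same order, and the stellate cell sum 107 to 171, 227 to 278 and 199 CPM. The sum of 4 erythroid markers, of which Hbb-b1 and Hba-a1 had at most 3 counts in every liver, was lower, at 141 to 165, 4.44 to 14.9 and 39.3 CPM. In bulk tissue, fewer cells of a type and less RNA per cell cannot be told apart, and the part of the cell makeup in the falls of Selenbp2 and Selenbp1 was not tested.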

How the data were processed

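Total RNA of RNA integrity number above 8 from 10 livers was sequenced by the authors as paired reads of 100 bases from stranded mRNA libraries, mapped to mm9 with STAR and counted per gene with its count module. The submitters' processing notes list STAR 2.7.3a, Trim Galore 0.6.4, bcl2fastq and Cufflinks 2.2.1. The deposited values are labelled CPM, yet they are whole numbers with unequal totals, and were used as raw counts per gene symbol. The annotation, the strand setting and the handling of reads that match more than 1 gene are not given in the sources used here.

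Counts were tested with edgeR 4.0.16 in R 4.3.3 (TMM scaling, quasi-likelihood test, Benjamini-Hochberg adjustment over all genes tested, threshold 0.05), for genes that reached 1 CPM in 5 livers or more, or 4 where 1 liver was left out. Standard errors came from the same fit. Alternatives were RLE, library-size and quantile scaling, limma 3.58.1 with a pseudocount of 1, DESeq2 1.42.0, no filter on low counts, the replicate number as a block and each liver left out. On simulated counts of the 11208 genes for this comparison, the test recovered 96 of 100 genes changed 4-fold and 55 of 100 changed 2-fold, with 4 false calls. The simulation changed 200 genes, as many up as down, whereas 5443 genes passed in these livers. It therefore does not measure recovery or scaling under changes of that extent. Library totals of 20872262 to 30450057 counts put 3 counts, taken as the floor of detection, at 0.0728 to 0.179 CPM. Sequences were read from NCBIM37 with GENCODE models, searched with blastn 2.17.0, and promoters aligned with Biopython 1.88. Of the symbols listed, 25 look like dates, and Selenof and Selenov were not matched.

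The genes, the gene lists and the rule for named genes were chosen with earlier results of these data known. The named genes are Selenbp1, Selenbp2 and Ndrg3, the 5 genes nearest in pattern to each of the pair, the genes next to them on the chromosome, up to 3 genes per direction of each list whose groups did not overlap, and the genes of the methanethiol oxidase reaction whatever their value. Tuft1, Cgn, Pogz, Snx27, Pip5k1a and Vps72 were named after their values were seen.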

Additional observations from a re-analysis of the deposited data

Results flagged for a closer look

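A liver was singled out where its gap to the nearest of the other 4 in its group exceeded 0.71 of the group's range, Dixon's 95% limit for 5 samples. This held in 14 of 72 groups examined, and in 12 of the 14 the liver was Ndrg3 LKO replicate 5. Chance gives about 1 in 20, but the genes examined include Selenbp1 and genes picked for their likeness to the pair over these same livers, so the number of cases is no test. Its Selenbp1 value was 522 TMM-normalized CPM, against 136 to 216 in the other 4. Among genes near Selenbp1 in pattern, the same liver had 262 CPM of Ivd, 86.9 CPM of Ppm1k and 510 CPM of Serpind1. Among genes near Selenbp2, it had 34.8 CPM of Ces3b, 3192 CPM of Serpina1e and 102 CPM of Cyp8b1, while its 31.8 CPM of Selenbp2 did not pass the limit. It also stood apart for Sephs2 at 815 CPM, Suox at 87.5 CPM, Aldh1l1 at 1267 CPM, Cat at 1190 CPM and Cyp2a4 at 1700 CPM. The other 2 cases were Mup14 in Ndrg3 LKO replicate 4, at 8.76 CPM, and Adh5 in wild-type replicate 1, at 695 CPM.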

How the results depend on the processing

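The log2 fold change of Selenbp2 lay between -9.36 and -7.97 and that of Selenbp1 between -1.27 and -0.33 over all alternatives. Both kept their direction. Each moved furthest without Ndrg3 LKO replicate 5, by more than its SE in the main fit (0.97 for Selenbp2 and 0.33 for Selenbp1). Leaving out 1 liver at a time, their ranges were -9.36 to -8.02 and -1.27 to -0.60. The replicate numbers did not pair the livers: same-numbered livers deviated from their group means with correlations of -0.357 to 0.036. With the replicate block, Selenbp2 had -9.29 and Selenbp1 -0.96.

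Counts of list genes depended more on the scaling. Shares of all genes by direction were counted only for the main fit and the fit without Ndrg3 LKO replicate 5. Under the other settings, whether a list moved more than all genes was thus not tested. More genes passed in all with library size alone than the 5443 of the main fit, and fewer with the replicate block. With 1 liver left out, 4703 to 6360 genes passed. With library size alone, which moved the median of all genes by 0.53, 8 selenoprotein genes were higher and 2 lower, 6 genes of selenium handling higher and 0 lower, 7 genes of the reaction lists higher and 1 neighbour lower. With quantile normalization, 7 genes of the reaction lists were higher. RLE scaling, no filter and the replicate block each left 1 gene of selenium handling higher, and the block 1 lower, 1 gene of the reaction lists higher and 1 neighbour higher. With no filter, 11 female-biased genes and 1 neighbour were higher. With 1 liver left out, 4 to 7 selenoprotein genes were lower (7 without Ndrg3 LKO replicate 5), 1 to 2 genes of selenium handling higher and 1 to 5 lower (5 without that replicate), 1 to 4 genes of the reaction lists higher (1 without wild-type replicate 1, wild-type replicate 4 or Ndrg3 LKO replicate 1), and 1 to 3 neighbours higher (1 without wild-type replicate 1, 2 or 5 or Ndrg3 LKO replicate 4). Single genes changed sign with library size alone: Secisbp2l 0.088, Aldh2 0.019, Snx27 0.037, Cgn 0.25, Pip5k1a 0.55, Vps72 0.47, Prdx2 0.24 and Prdx5 0.31. With quantile normalization, Aldh2 was 0.33 and Prdx5 0.053. With 1 liver left out, Pip5k1a ranged from -0.21 to 0.10 and Vps72 from -0.17 to 0.032. Of 781 comparisons of single genes with an alternative, 698 kept direction and side of the threshold. Windows of 50 bases were shared at 52.3% of positions of Selenbp1 and 52.0% of Selenbp2, and windows of 200 bases at 0.0%. Beyond the settings' own construction, the cause was not tested.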
